A study of Danio rerio with 6 samples.

Results

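The baseline described here is the messenger RNA of whole wild-type zebrafish (Danio rerio) embryos at 3 days post fertilization, measured by RNA sequencing in 3 libraries. A gene entered the baseline when its total reached at least 1 FPKM (fragments per kilobase of transcript, scaled to the sequencing depth, so that levels are corrected for transcript length) in all 3 libraries, which 14143 genes did out of 19364 genes with a total in any of the 6 libraries of the series. Per library, the FPKM of all first exons of a gene (its transcript starts) and of all last exons (its transcript ends) were summed, and the higher sum was taken as the gene's total. The fish carry the genotype label wild type and library titles beginning with TU-A; no transgene, deletion or drug treatment is named for them. Embryos were anaesthetized with MS-222 and killed, RNA was taken with TRIzol, and 1 μg of total RNA went into each library. The labels speak of 30 embryos, which can be read as per genotype or per library, and do not say whether the libraries came from separate clutches, so the spread given here may be partly technical. The other 3 libraries of the series, from csf1ra mutants, enter no comparison of levels.

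At this stage the zebrafish has usually just hatched and is about to depend on swimming, vision and, once the yolk is used up, feeding. The trunk is mostly fast-twitch muscle, whose contraction needs actin, myosin, troponin and tropomyosin, and whose relaxation is aided by the calcium buffer parvalbumin and the calcium pump Serca1. The yolk syncytial layer and liver load yolk lipid onto apolipoproteins, the lens fills with crystallins, and the skin is a thin layer rich in keratins. In whole embryos a low value can come from few cells of a type or from little RNA per cell, and these cannot be told apart.

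The kept genes held 99.1%, 99.0% and 99.2% of the summed FPKM of all genes with an ID in replicates 1, 2 and 3. Their summed FPKM was 348344, 360541 and 367671, and the median gene stood at 6.99, 7.04 and 6.81 FPKM. A total was listed for 17400, 17569 and 17349 genes, of which 15205, 15186 and 14970 reached 1 FPKM. Another 2226 genes were listed in all 3 libraries but fell under 1 FPKM in at least 1, and 2178 were listed in only 1 or 2 libraries, 465 of them at 1 FPKM or more somewhere. Just inside the threshold, the lowest values were 1.00 FPKM in baiap2l1b, erap1a and dpep1. Just outside it, the lowest values of heyl, atxn10 and fggy were 0.999, 0.999 and 0.998 FPKM. Read totals are not in the files, and the depth behind the values is unknown.

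A total carries the name of 1 gene, but its locus may hold others, which bears on several of the highest values. For 2290 kept totals, or 16.2%, the authors' deposited table places another gene that has no total of its own in the same locus, and these totals held 22.9% to 23.2% of the summed FPKM. Other genes of the locus are named below for the totals where they bear on a tissue, and how a total divides among them is not known. In all, 11853 kept totals are alone in their locus in this sense. The 13 protein genes of the mitochondrial genome have no total, although that table names them. The baseline below thus covers nuclear genes as the totals name them.

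A small number of genes carried most of the RNA. In replicates 1, 2 and 3, the 10 most abundant genes of each library held 10.1%, 10.5% and 10.9% of the summed FPKM, and the 100 most abundant held 32.1%, 32.8% and 34.01%. To reach 50% took 345, 322 and 285 genes. Replicate 3 was the most concentrated at each of these points and replicate 1 the least. The order was shared between libraries: 8 of the top 10, 17 of the top 20, 94 of the top 100 and 908 of the top 1000 genes were the same in all 3.

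**Figure D1:**
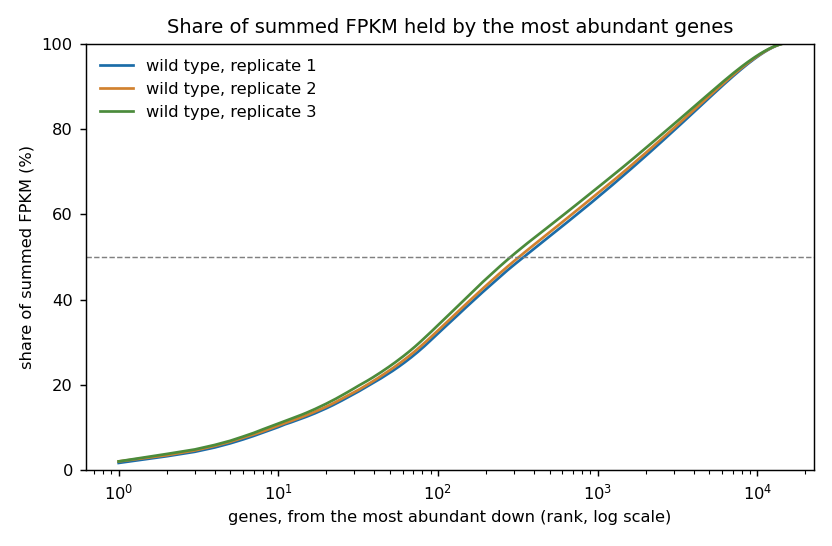
Running share of the summed FPKM (y, %) against gene rank from the most abundant down (x, log scale), with 1 line per wild-type library. The lines nearly overlie each other and cross the dashed 50% line at 345, 322 and 285 genes in replicates 1, 2 and 3.

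By level, 35 genes at a mean of 1000 FPKM or more held 19.9% of the sum, and 145 genes between 300 and 1000 FPKM held 22.0%. At the other end, 6058 genes between 3 and 10 FPKM made up 42.8% of the kept genes and held 9.85%, and 2823 genes between 1 and 3 FPKM held 1.66%. Of the 100 most abundant genes, 42 encode cytosolic ribosomal proteins and 14 belong to fast muscle. Lipoprotein, epidermis and common cytoskeleton genes gave 4 each, and translation factors 3. Another 17 were in none of the 48 gene lists.

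The 2 highest totals came from fast muscle. actc1b, an alpha-actin of muscle (GRCz10 chromosome 17, 117123 to 124703), stood at 5852, 7332 and 7539.6 FPKM. Replicate 1 was the low one, and the gene was first in every library. pvalb2, a parvalbumin that takes up calcium after contraction (chromosome 12, 17588550 to 17590624), stood at 5471, 5267 and 6386 FPKM and was second in every library, highest in replicate 3. mylpfa, a regulatory light chain of fast myosin (chromosome 3, 32681333 to 32686893), stood at 3359.8, 3478 and 3589.7 FPKM, a narrow range. Its duplicate mylpfb (chromosome 12, 14964453 to 14972693) stood at 1401, 1359 and 1518 FPKM. mylz3, a fast myosin light chain (chromosome 1, 6834015 to 6871030), stood at 2213, 2612 and 2388 FPKM and was highest in replicate 2. The locus also holds lancl1, with no total of its own.

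Fast muscle regulators and pumps followed. tnni2a.4, a fast troponin I that holds contraction off without calcium (chromosome 25, 30699938 to 30711182), stood at 1638, 1709 and 1815 FPKM. tpma, the tropomyosin of the thin filament (chromosome 7, 29680846 to 29690930), stood at 1504, 1633 and 1612 FPKM. Both were lowest in replicate 1. atp2a1, the Serca1 pump that returns calcium to the sarcoplasmic reticulum (chromosome 3, 25950471 to 26026195), stood at 1621, 1611 and 1681 FPKM and had the smallest relative spread of the 20 highest totals, with a coefficient of variation (SD over mean, CV) of 2.32%. Its locus also holds the heat shock gene hsp70.1, with no total of its own. The muscle creatine kinases, which regenerate ATP, were nearly equal. ckma (chromosome 5, 36231925 to 36237693) stood at 1429, 1543 and 1675 FPKM and ckmb (chromosome 15, 23708452 to 23711813) at 1483, 1435 and 1678 FPKM, and their ranges overlapped.

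The totals named pvalb5 and ncs1a were in no list, but their loci also hold muscle genes. The total named pvalb5 (chromosome 3, 60961254 to 60985787) stood at 3547, 3816 and 3906 FPKM, with replicate 1 the lowest. In the authors' deposited table that locus also holds the muscle parvalbumin gene pvalb1, which has no total of its own. The total named ncs1a, a calcium sensor of neurons, stood at 2235, 2388 and 2109 FPKM and was lowest in replicate 3. Its locus (chromosome 5, 31660348 to 31845650) also holds the fast myosin heavy chain genes myhz1.1, myhz1.2 and myhz1.3. Of these only myhz1.2 has a total of its own. The locus also gives totals named c9, dab2, fbxw2 and hspb15, and which totals hold the reads of myhz1.1 and myhz1.3 is not known. The authors' deposited table marks all 21 transcripts of that locus HIDATA, the Cufflinks mark for a locus with too many fragments to process. Another fast myosin heavy chain gene, myhz2, had no total. With the totals named pvalb5 and ncs1a counted as fast muscle, the share of the fast muscle list given below would be 11.5%.

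Epidermis, lens and lipid transport filled several of the other high places. krt4, a keratin of the outer skin layer (chromosome 6, 39310961 to 39315491), stood at 2895, 2846 and 3121 FPKM. The total named krt91 (chromosome 19, 5433425 to 5464284), whose locus also holds the keratins cyt1, krt17 and krt92, stood at 2719.5, 2538 and 3151 FPKM. Both keratin totals were highest in replicate 3. The total named crygm2d1 (chromosome 9, 22316748 to 22528713), in a cluster of gamma-crystallin genes of the lens, stood at 3153, 3386 and 3583 FPKM, lowest in replicate 1. That locus holds 15 other genes with no total of their own, so it is a total of the cluster. apoa2, an apolipoprotein of high-density lipoprotein (chromosome 16, 24063945 to 24065322), stood at 2309.7, 1987 and 2615 FPKM, with replicate 2 clearly the lowest.

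The remaining high totals are genes most cells use. eef1a1l1, the elongation factor that brings aminoacyl-tRNA to the ribosome (chromosome 19, 43523333 to 43539373), stood at 3635, 4039.9 and 3894 FPKM. actb1, a cytoplasmic beta-actin (chromosome 1, 7964987 to 7968621), stood at 1299.6, 1781 and 1596 FPKM, with replicate 1 the lowest. rps9, a protein of the small ribosomal subunit (chromosome 16, 31966475 to 31969065), stood at 1418, 1502 and 1469 FPKM. slc25a5, the mitochondrial ADP/ATP carrier (chromosome 14, 32541310 to 32543824), stood at 1234, 1351 and 1991 FPKM. Replicate 3 stood apart from the other two there, and its CV of 26.7% was the largest of the 20 highest totals.

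**Figure D2:**
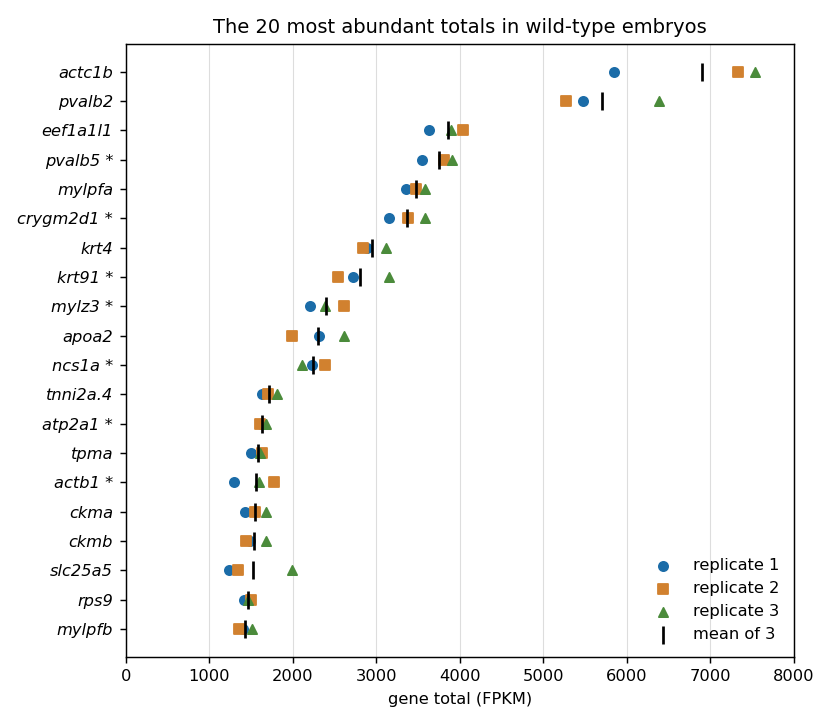
FPKM (x) of the 20 most abundant totals (y, highest at the top), with 1 point per wild-type library and a bar at the mean. actc1b leads at a mean of 6908 FPKM and mylpfb closes at 1426 FPKM; an asterisk marks the totals named pvalb5, crygm2d1, krt91, mylz3, ncs1a, atp2a1 and actb1, whose loci hold other genes with no total of their own.

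The abundance was then read by 48 lists of marker and machinery genes, with each gene counted once. Tissue lists together held 21.2% ± 0.54 of the summed FPKM (SD, n = 3) from 466 kept genes. Lists of general cell machinery held 26.9% ± 0.70 from 695 genes. Lists of regulators, namely Hox genes, developmental transcription factors and signalling ligands, held 0.612% ± 0.0042 from 231 genes. The remaining 12751 genes, in no list, held 51.3% ± 1.2. These shares rank RNA and not cells, since cell types differ in RNA content and in how many of their genes a list names.

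**Figure D3:**
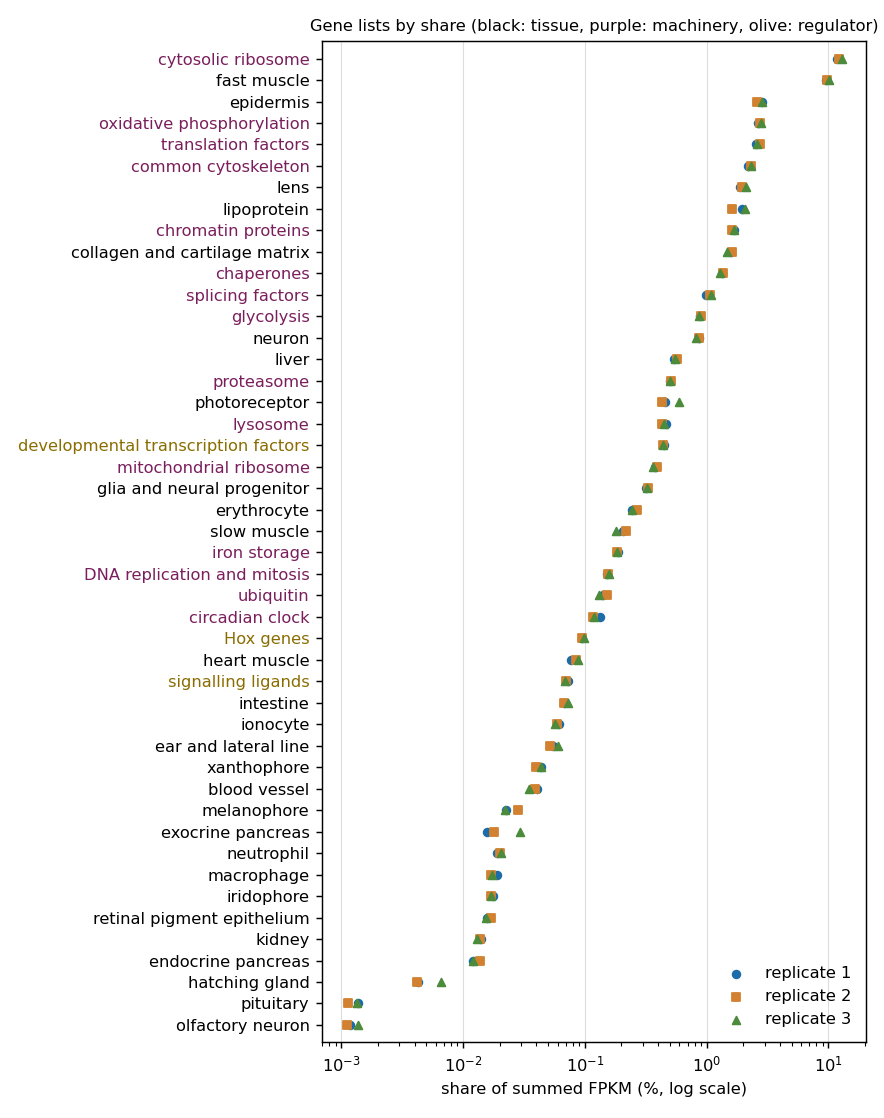
Share of summed FPKM (x, %, log scale) of each gene list with a kept member (y), with 1 point per wild-type library; label colours mark tissue, machinery and regulator lists. Cytosolic ribosome (12.3%) and fast muscle (9.82%) lead and olfactory neuron (0.00122%) closes.

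By summed share the muscle lists were the largest of the tissue lists, and nearly all of that share came from the fast list. The fast list held 9.82% ± 0.31 (SD, n = 3), with 44 of 52 genes kept at a median of 171 FPKM. The slow list, of the superficial fibres that serve sustained swimming, held 0.202% ± 0.018 with 9 of 12 kept. Its highest members were the myosin light chain myl10 at 357, 382 and 275 FPKM, the tropomyosin tpm2 at 171, 182 and 195 FPKM and the troponin C tnnc1b at 122, 133 and 133 FPKM. myl10 was lowest in replicate 3 and tpm2 was not. The slow myosin heavy chain genes smyhc1 and smyhc2 have no total of their own but lie in the locus of kept totals. The slow share leaves them out. The heart list held 0.0832% ± 0.0051 with 9 of 16 kept. Its first member, the alpha-actin actc1a, stood at 164, 204 and 215 FPKM and made up 65.0% of the list. Without actc1a the list held 0.0292%. The heart list genes myh6, vmhc and cmlc1 have no total, so these shares leave them out. The atrial and embryonic light chain myl4 stood at 45.3, 43.4 and 48.1 FPKM, the cardiac light chain myl7 at 20.7, 18.6 and 20.96 FPKM and the ventricular myosin vmhcl at 16.7, 7.67 and 13.8 FPKM. The last varied most, with replicate 2 the lowest.

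The skin list held 2.76% ± 0.14 (SD, n = 3), with 30 of 41 genes kept. Besides the keratins above, krtt1c19e, a keratin of the basal skin layer, stood at 1059, 1058 and 938 FPKM and krt5 at 887, 899 and 866 FPKM. The coefficient of variation of krt5 was 1.90%. The list of collagen and cartilage matrix held 1.56% ± 0.084 with 62 of 81 kept. It was led by the type I collagen chain col1a1a at 720.0, 687 and 550.2 FPKM, lowest in replicate 3. The collagen-binding glycoprotein gene sparc stood at 612, 646 and 604 FPKM. col2a1a, the collagen of cartilage and notochord, stood at 469.7, 542 and 545 FPKM, lowest in replicate 1. and2, an actinodin of the larval fin fold, stood at 291, 319 and 291 FPKM. In this list, 32 of the 62 kept members were lowest in replicate 3, against 38.3% of all kept genes.

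The eye was visible through both lens and photoreceptors. The lens list held 1.98% ± 0.11 (SD, n = 3), with 29 of 69 genes kept. A further 16 have no total but lie in the locus of a kept one. After the crygm2d1 cluster came the beta-crystallin cryba4 at 456, 484 and 523 FPKM, the gamma-crystallin crygm2d13 at 336, 337 and 392 FPKM and the beta-crystallin crybb1 at 250.2, 294 and 379.6 FPKM. All 3 were highest in replicate 3. Photoreceptor genes held 0.494% ± 0.086, with 38 of 56 kept. gngt2b, a cone transducin subunit, led at 198, 189 and 302 FPKM. The ultraviolet cone opsin opn1sw1 stood at 189.7, 183 and 273 FPKM and the red cone opsin opn1lw2 at 178, 181 and 235 FPKM. The total named opn1mw2 stood at 109.9, 113 and 167 FPKM. Its locus also holds opn1mw1, and both are green cone opsin genes. Replicate 3 was the highest for each of these cone genes. The rod opsin gene rho had no total, so its level is not known here.

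Yolk lipid transport and liver made up a further large part. The lipoprotein list held 1.88% ± 0.23 (SD, n = 3), with 14 of 17 genes kept. After apoa2 came apoa1b at 1203, 976 and 1347 FPKM, apoa1a at 1067, 935 and 1235 FPKM and apoc1 at 705, 547 and 759 FPKM. All 4 had their lowest value in replicate 2 and their highest in replicate 3. The liver list held 0.554% ± 0.019, with 30 of 40 kept. rbp4, which carries retinol in plasma, stood at 496, 891 and 461 FPKM, and only replicate 2 was high. tfa, the iron carrier transferrin, stood at 425, 336 and 446 FPKM and was lowest in replicate 2. The plasma protein gene fetub stood at 136, 112 and 179.6 FPKM. Vitellogenin genes, which encode the yolk protein that the mother's liver makes, had no total for any of 7. Their levels are thus not known here.

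Nearly all genes of the neuron list were kept, at means from 1.57 to 454 FPKM. The neuron list held 0.846% ± 0.028 (SD, n = 3), and 51 of 53 genes were kept, at a median of 34.7 FPKM. The tubulin genes tuba1c and tubb5 stood at 421, 482 and 459.8 FPKM and at 221, 245 and 221 FPKM. The stathmin gene stmn1b stood at 196, 192 and 190.3 FPKM and the synuclein gene sncb at 179, 186 and 195 FPKM. No library stood apart for these genes. The list of glia and neural progenitors held 0.325% ± 0.0076 with 15 of 24 kept. Its largest member was the brain fatty-acid binding protein fabp7a at 631, 709.6 and 716 FPKM. The glutamate transporter slc1a2b stood at 116, 128 and 125 FPKM, the glial filament gene gfap at 119, 118 and 114 FPKM and the glutamine synthetase glulb at 70.7, 81.8 and 64.9 FPKM.

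Among blood markers, the globin hbae3 stood far above the leukocyte genes, while the total named hbbe1.2 was close to the neutrophil gene lyz. The erythrocyte list held 0.252% ± 0.014 (SD, n = 3), with 11 of 20 genes kept, and hbae3, an embryonic alpha-globin, stood at 652, 734 and 682 FPKM. The beta-globins hbbe2 and hbbe1.2 stood at 82.2, 107 and 93.9 FPKM and at 48.3, 50.8 and 57.5 FPKM. The total named si:ch211-5k11.12 stood at 1266, 1379 and 1204 FPKM. The authors' deposited table places the beta-globin gene hbbe1.1 in the locus of both this total and hbbe1.2. With totals in no list placed in the list of their locus, the erythrocyte share became 0.784%. Among leukocytes, the neutrophil list held 0.0199% with lyz, a lysozyme, at 44.3, 52.3 and 53.8 FPKM. The macrophage list held 0.0178%, with 13 of 26 kept, and its first members were the chemokine ccl34b.1 at 10.1, 10.6 and 14.2 FPKM and the total named mfap4 at 10.5, 5.94 and 6.19 FPKM.

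Of the 3 pigment cell lists, that of xanthophores held the most, 0.0423% ± 0.0019 (SD, n = 3), and most of it was 1 gene. gch2, which starts pteridine synthesis, stood at 105, 100.02 and 111 FPKM and made up 69.4% of the list. Without it the list held 0.0130%. The melanophore and iridophore lists, each without its own highest member, held 0.0138% and 0.00884%. slc2a11b stood at 11.4, 13.8 and 15.6 FPKM. csf1ra, the receptor gene of the series' mutants, stood at 4.54, 4.07 and 3.72 FPKM and ranked 9851 of the 14143 kept genes. The melanophore list held 0.0245% ± 0.0035, led by tyrp1b, an enzyme of melanin synthesis, at 34.8, 43.6 and 36.5 FPKM, and 7 of its 10 kept members were highest in replicate 2, against 35.3% of all kept genes. dct, another enzyme of that pathway, stood at 10.6, 17.5 and 9.79 FPKM. The iridophore list held 0.0171%, led by the purine enzyme pnp4a at 28.3, 29.7 and 30.7 FPKM and by gpnmb at 22.5, 21.9 and 22.0 FPKM.

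Gut and pancreas were at low but measurable levels. In the intestine list, 9 of 15 genes were kept and held 0.0693%, led by the fatty-acid binding genes fabp1b.1 at 127, 128 and 153 FPKM and fabp2 at 53.0, 58.6 and 59.9 FPKM. The exocrine pancreas list kept 9 of 30 genes with 0.0211%, led by the trypsin gene try at 18.6, 24.996 and 34.5 FPKM and by prss59.2 at 13.3, 14.4 and 34.2 FPKM, another trypsin-like protease gene. Both were highest in replicate 3. Of the endocrine list, 10 of 12 were kept with 0.0126%. Insulin (ins) stood at 8.61, 15.4 and 11.7 FPKM, lowest in replicate 1, and the somatostatin gene sst1.1 at 7.20, 5.72 and 6.47 FPKM. Smaller still were pituitary markers, with 2 of 10 kept, where growth hormone (gh1) stood at 2.27, 1.84 and 3.02 FPKM and pomca at 2.52, 2.24 and 1.97 FPKM. Of 6 hatching gland genes 2 were kept, the total named he1b at 11.6, 12.198 and 20.8 FPKM and klf17 at 3.24, 3.00 and 3.51 FPKM. The other 4 have no total but lie in the locus of a kept one, he1a and he2 in that of he1b.

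Sensory, transporting and vascular cells were likewise small. Ear and lateral line genes held 0.0557%, with the parvalbumins pvalb8 at 56.1, 63.2 and 69.9 FPKM and pvalb9 at 57.1, 46.4 and 73.7 FPKM and the otolith gene stm at 41.9, 42.0 and 42.4 FPKM. Of the ionocyte list, 11 of 19 genes were kept with 0.0591%, among them the ammonia transporter rhbg at 52.4, 42.9 and 51.9 FPKM and carbonic anhydrase ca2 at 25.7, 21.6 and 30.2 FPKM. The highest member of that list is another gene, and without it the list held 0.0307%. Blood vessel genes held 0.0382%, with 16 of 19 kept, led by the receptor gene tek at 55.9, 42.7 and 43.3 FPKM, vsg1 at 24.0, 27.2 and 24.4 FPKM and the transcription factor fli1a at 13.3, 18.5 and 14.2 FPKM. The endothelial receptor gene kdrl, next in the list, stood at 7.47, 7.997 and 6.46 FPKM. For the pronephros list, 8 of 14 were kept with 0.0137%, led by cdh17 at 19.9, 18.6 and 17.9 FPKM.

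Protein synthesis was the largest single function. Cytosolic ribosomal proteins held 12.3% ± 0.52 (SD, n = 3), with 77 of 89 genes kept at a median of 598 FPKM. rplp0 of the ribosomal stalk stood at 1282, 1389 and 1422 FPKM, rps2 at 1042, 1132 and 1198 FPKM and RPL41 at 1017, 1050.3 and 1279 FPKM. All 3 were lowest in replicate 1 and highest in replicate 3. Some ribosomal loci carry the name of a small nucleolar RNA that lies in the locus. The total named SNORD36 stood at 1123, 1186 and 1238 FPKM in the locus of rpl7a, and that named SNORD42 at 721, 723 and 895 FPKM in the locus of rpl23a. The total named SNORA31 stood at 1378, 1371 and 1403 FPKM in the locus of tpt1. In all, 20 such names held 2.02% to 2.11% of the summed FPKM. With totals in no list placed in the list of their locus, the ribosomal list held 13.9%.

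Energy supply and translation factors came next, at much the same share. Nuclear genes of oxidative phosphorylation held 2.74% ± 0.088 (SD, n = 3), with 85 of 95 kept, and the ATP synthase subunits atp5b and atp5a1 stood at 617, 671 and 690.1 FPKM and at 506, 566 and 554 FPKM. Both were lowest in replicate 1. Translation factors held 2.65% ± 0.11 and were ahead of oxidative phosphorylation in replicate 2, with eef2b, the elongation factor of translocation, at 844, 986 and 961 FPKM. Glycolysis held 0.884% ± 0.022 with all 28 genes kept, led by gapdh at 725, 776 and 781 FPKM. Chaperones held 1.33% ± 0.030, led by the constitutive heat shock protein genes hspa8 at 1012, 1062 and 1003 FPKM and hsp90ab1 at 722, 779.7 and 742 FPKM. The replication and mitosis list held 0.155% ± 0.0034, with the polymerase clamp pcna at 110.2, 114 and 119 FPKM, nearly level across libraries. Mitochondrial ribosomal proteins, with 69 of 74 genes kept, lay between 5.63 and 41.9 FPKM. Their median of 19.1 FPKM was far below the median of 598 FPKM of the cytosolic list. The lowest kept member of the cytosolic list, rps8b, had a mean of only 2.04 FPKM.

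Regulators had small summed shares. Of 260 genes listed as developmental transcription factors, 184 had a total in wild type and 159 were kept. The median of these was 6.62 FPKM, close to the median of all kept genes. Those with no total cannot be placed above or below the threshold. The highest kept were the homeobox genes meis2a at 55.5, 66.1 and 64.5 FPKM, meis1b at 62.3, 54.9 and 58.5 FPKM and meis2b at 48.8, 48.4 and 50.1 FPKM. Of 103 genes listed as signalling ligands, 87 had a total and 47 were kept, led by wnt11r at 26.8, 25.5 and 27.1 FPKM. The ligand list summed to 0.0708% ± 0.0017 (SD, n = 3). Of the clock genes, 29 of 34 were kept with 0.123% ± 0.0091, led by tefa at 71.3, 51.2 and 67.8 FPKM and cry1ba at 54.8, 53.9 and 48.5 FPKM.

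Hox genes, which pattern the body axis, were kept in 32 of 50 cases and held 0.0966% ± 0.0016 (SD, n = 3). By paralogue group, group 3 had the highest sum, with 106, 103 and 97.9 FPKM. Group 5 came next with 43.4, 48.0 and 55.3 FPKM, and group 13 had 16.2, 15.1 and 18.4 FPKM. hoxb3a stood at 42.3, 47.8 and 35.9 FPKM, hoxa3a at 38.6, 38.5 and 40.1 FPKM and hoxc3a at 25.3, 16.8 and 21.9 FPKM. Hox genes lie in clusters whose members share loci here, and 10 have no total but lie in the locus of a kept one, so a group's sum may hold reads of its neighbours. hoxc4a, in the locus of hoxc3a, and hoxb4a, in the locus of hoxb3a, are 2 of these.

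Genes whose names differ only in a final a or b were compared as pairs of levels within the same libraries. Such names often mark duplicates from the teleost genome duplication, but the origin of each pair was not checked. This pairing by name was chosen after the data had been seen. Both genes were kept in 1499 of the 2450 pairs with a total for either. Only the a gene was kept in 398, only the b gene in 315 and neither in 238. Of the 1499 pairs, the a gene was higher in 785 and the b gene in 714. The median ratio of higher to lower was 2.03, and 70 pairs, or 4.67%, differed by over 10-fold. In 1210 pairs, or 80.7%, the 3 values of one gene all lay above the 3 values of the other. No such count is given for pairs of unrelated genes, so it cannot be read as particular to duplicates.

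Among pairs with a member at 100 FPKM or more, the largest ratio was that of fabp7a, described above, to fabp7b at 4.17, 6.23 and 7.17 FPKM, a 117-fold difference of means. The troponin C genes went the other way: tnnc1a, a cardiac form, stood at 1.52, 2.43 and 1.94 FPKM and tnnc1b at 122, 133 and 133 FPKM. The alpha-actin genes likewise differed, with actc1b 35.6-fold above actc1a. aldoca stood at 1.69, 1.56 and 2.65 FPKM, against 118, 127 and 119.6 FPKM in aldocb. At the other extreme ckma and ckmb differed by 1.01-fold and hnrnpaba and hnrnpabb by 1.05-fold. The ranges overlapped in both of these pairs, and in apoa1a and apoa1b.

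The libraries were close to each other gene by gene. Pearson correlations of log2(FPKM + 1) between pairs of libraries were 0.980 to 0.982 over 14143 genes, as a description across genes. Between 289 and 355 genes, or 2.04% to 2.51%, differed by over 2-fold in a pair of libraries. The median CV was 10.7%, with quartiles at 6.17% and 18.2%. It was under 10% in 6581 genes, or 46.5%, and over 50% in 169, or 1.19%. The spread depended on level: the median CV was 17.3% at 1 to 3 FPKM, 11.8% at 3 to 10, 7.90% at 10 to 30 and 5.48% at 100 to 300 FPKM. Above that it did not fall further, with 7.24% at 300 to 1000 FPKM and 6.83% at 1000 FPKM or more.

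**Figure D4:**
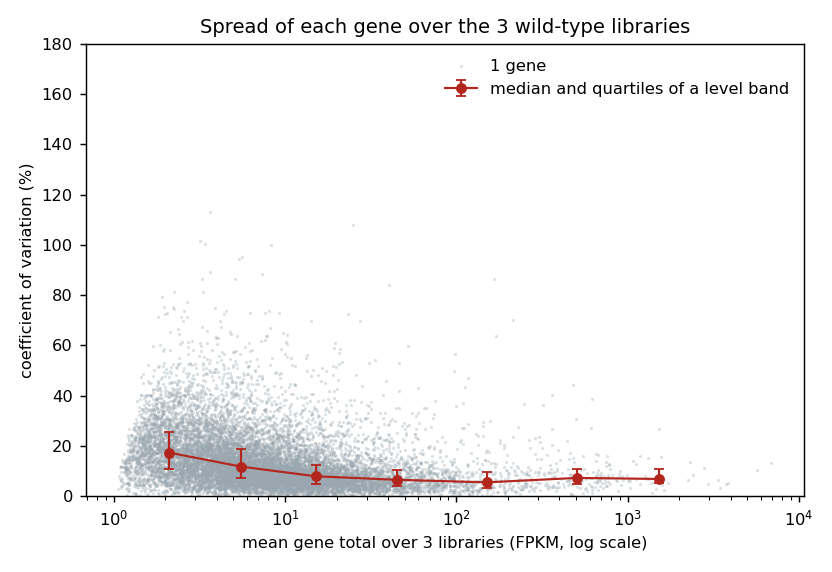
Coefficient of variation over the 3 wild-type libraries (y, %) against mean FPKM (x, log scale), with 1 grey point per kept gene; red points and bars are the median and quartiles of each band of levels. The median falls to 5.48% at 100 to 300 FPKM, against 17.3% at 1 to 3 FPKM, and is 6.83% at 1000 FPKM or more.

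How a total was formed moved with its spread. In 7534 genes the start and end sums were equal within 1% in all 3 libraries, and their median CV was 9.36%, against 12.5% in the other kept genes. Of the 169 genes with a CV over 50%, 55 were in the first set and 114 in the second. The part of level and of transcript structure in this difference was not tested. The first set had the higher median level, at 7.58 FPKM against 6.35 FPKM. In the 3 mutant libraries, taken only as another set of 3 with its own spread, the median CV was 11.5% over 14015 genes, and the CVs of both sets had a Spearman correlation of 0.344. Of 164 genes over 50% here that had a total in all 3 of those libraries, 33 (20.1%) were over 50% there too, against 2.21% of all genes in that set.

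Among genes of at least 10 FPKM on average, the largest CV was that of dpp7, a dipeptidyl peptidase, at 55.5, 13.2 and 5.85 FPKM. Replicate 1 was high, and its end sum stayed under 1 FPKM in every library. rps29, a ribosomal protein gene, stood at 232, 265 and 1.46 FPKM, from start events alone, with replicate 3 almost without a value. hnrnpa1a, a splicing regulator, stood at 41.1, 301 and 301 FPKM, also from start events alone, with replicate 1 low. asph, sgta and mapre2 likewise rested on one kind of event or on sums that differed. In 4 of the 10 both sums agreed: tnnt2d, a troponin T gene, stood at 4.11, 24.0 and 14.7 FPKM, the elongation factor gene eef1b2 at 113, 294 and 102 FPKM, znf865 at 15.4, 2.83 and 12.5 FPKM and the adhesion gene cadm1a at 7.01, 6.12 and 17.3 FPKM. The library that stood out was not the same in all 4. Of all kept genes, 53.3% had sums that agreed within 1% in all 3 libraries.

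The smallest CV was that of scp2a, a sterol carrier gene, at 19.8 FPKM in all 3 libraries. The zinc exporter gene slc30a1a stood at 13.3 FPKM in all 3. enosf1 stood at 11.8, 11.8 and 11.8 FPKM, tomm22, part of the mitochondrial import pore, at 44.4, 44.2 and 44.3 FPKM and drap1, a repressor of transcription, at 48.9, 48.7 and 48.9 FPKM. The others of the 10 were odc1, calr, itm2ca, tlk1a and dnajc1, all with a CV of 0.332% or less. Totals with a small spread could also rest on start events alone, as in tomm22 and drap1, or on sums that differed, as in enosf1.

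Genes often used to normalise quantitative PCR differed in their spread. The list of 18 was chosen after the data had been seen, and 17 were kept. The lowest CV was that of ube2a, a ubiquitin-conjugating enzyme, at 38.3, 37.6 and 38.1 FPKM (CV 0.975%). mob4 stood at 67.3, 70.2 and 68.2 FPKM, lsm12b at 47.2, 47.5 and 49.6 FPKM and gapdh, given above, had a CV of 4.02%. eef1a1l1 had 5.31% and rpl13a 4.75%. At the other end, actb1 had 15.6%, actb2 15.3% and rps18 15.9%, above the median CV of 6.83% and 7.24% of genes at their levels. In all, 11 of the 17 lay below the median of their level.

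No library stood far from the others over all genes, and each had its own directions. A library counted as apart in a gene when it lay more than 2-fold above or below both others. Replicates 1, 2 and 3 were so in 80, 86 and 120 genes. For replicate 3, 93 of the 120 were low, while for replicates 1 and 2 the low ones were 38 of 80 and 41 of 86. Replicate 3 was the highest library in 30.4% of kept genes and the lowest in 38.3%. The median ratio of each library to the genes' geometric means was 1.00, 1.01 and 0.991.

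Against that background, several lists moved as a block. In photoreceptor genes replicate 3 was the highest in 35 of 38 kept members, and the list's share was 0.456%, 0.434% and 0.592%. In the lens list replicate 3 was highest in 26 of 29, with shares of 1.89%, 1.94% and 2.11%. In the exocrine pancreas it was highest in 7 of 9, with 0.0159%, 0.0180% and 0.0293%, the widest relative spread of any list. Replicate 3 was also highest in 57 of 77 ribosomal and 53 of 85 oxidative phosphorylation genes. In the same lists replicate 1 was lowest in 58 and 60, against 32.6% of all kept genes. With libraries rescaled by their median ratio, the counts for replicate 3 were 35, 27, 7, 62 and 58 in the same order. Members of a list are measured in the same 3 libraries, so these counts describe 1 library and not a replicated difference.

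Replicate 2 had its own pattern. It was the lowest library in 12 of 14 kept lipoprotein genes, with list shares of 1.95%, 1.61% and 2.06%, and in 21 of 30 liver genes, against 29.1% of all kept genes. The summed share of the liver list went the other way, at 0.538%, 0.575% and 0.549%, highest in replicate 2. rbp4, given above, was the only one of the 30 liver genes that was highest in replicate 2, and without it the list held 0.395%, 0.328% and 0.423%. Replicate 2 was the highest in 7 of 11 erythrocyte genes and in 7 of 10 melanophore genes, against 35.3% of all kept genes. The neuron list, by contrast, had 25, 19 and 7 of its 51 genes highest in replicates 1, 2 and 3. Of all kept genes, 34.4%, 35.3% and 30.4% were highest in these libraries. The age of the embryos in hours, the clutch and the RNA quality of each library are not in the labels, and their part in these patterns was not tested.

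**Figure D5:**
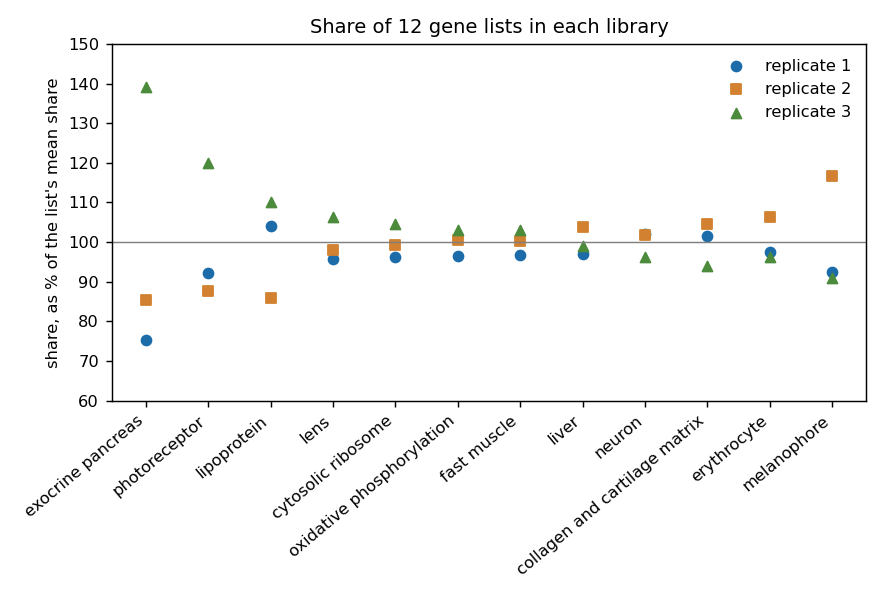
Share of each of 12 lists in each wild-type library (y, as a percentage of the list's mean share over the 3 libraries; the axis runs from 60 to 150), with 1 point per library; the lists were picked after their values were seen. Replicate 3 stands at 139% of the mean for the exocrine pancreas and 119.9% for photoreceptors, and replicate 2 at 86.0% for lipoproteins.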

How the data were processed

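RNA was measured in 3 wild-type libraries of whole embryos. The submitters' processing notes name the build GRCz10 and, with no role or setting, Cufflinks 2.2.1, HISAT2 2.0.1, SAMtools 0.1.18, DESeq, HTSeq 0.6.1 and Trimmomatic 0.30. The values are FPKM per transcript-structure event, per the file headers; the depth behind them is unknown. From the authors' deposited table of both genotypes only gene names, loci and the test status were used; its 2 value columns name no genotype and were left out. From the events, gene totals, ranks, shares of summed FPKM and coefficients of variation were computed with Python 3.11.15, pandas 2.3.3, NumPy 2.4.6 and SciPy 1.17.1, and figures with matplotlib 3.10.9. The procedure was tested on simulated data. Only 1 group was described, so no test was run, and p-values are not given.

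Named genes were the 20 most abundant, up to 4 of the highest per list, the 10 highest and 10 lowest coefficients of variation among genes of at least 10 FPKM, and the 3 genes on each side of the threshold. Named after a look at the values, outside this rule, were csf1ra, hbbe1.2, fabp7b, the duplicated pairs, the genes for quantitative PCR and those named for a shared locus. The rule, the members and the 48 gene lists were chosen with earlier results of these data known, and 10 genes that list patterns caught by mistake were taken out. Some such genes remain in the counts. Examples are fgf13a among the ligands, tbxa2r among the transcription factors, hspg2 among the chaperones and rps19bp1 among the ribosomal proteins. Alternatives were other minimum levels, first-exon or last-exon events alone, median-ratio rescaling, a pseudocount of 0.1 and each library left out. Chosen after seeing the data were placing totals in no list by the other genes of their locus, where these belong to 1 list, and keeping only totals with no such other gene. One result that the rule would name is not reported here.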

Additional observations from a re-analysis of the deposited data

How the results depend on the processing

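No paired analysis was possible because only 1 genotype is described and no groups are compared. With a minimum of 5 FPKM in place of 1, 8035 genes were kept. The 10 most abundant genes then held 11.1%, the tissue lists together 22.3%, fast muscle 10.4% and the cytosolic ribosome 13.0%, and the median coefficient of variation was 7.98%. Here fewer low genes enter the sums. With every gene listed in all 3 libraries that median was 12.14%. First-exon events alone gave tissue lists 19.7%, fast muscle 8.61% and the ribosome 13.1%. Last-exon events alone gave tissue lists 20.3%, fast muscle 10.5% and the ribosome 12.7%. The cause was not tested. Chosen after seeing the data, placing totals in no list by the other genes of their locus gave 23.5%, 11.5% and 13.9% for tissue lists, fast muscle and ribosome, and 0.784% for erythrocytes, against 0.252% in the report. Only totals alone in their locus gave 11.5% for the 10 most abundant genes, 10.4% for fast muscle and 11.4% for the ribosome; the crystallin cluster is left out there, and the lens share was 1.16%, against 1.98%. A pseudocount of 0.1 gave a mean correlation between libraries of 0.977, against 0.981. Without 1 library each, the median coefficient of variation was 8.35% to 9.13%, over 2 libraries instead of 3. Leaving out each library, 14415 to 14566 genes were kept, and 306 to 337 genes held 50% of the summed FPKM. Median-ratio rescaling multiplies each library by 1 factor and so cannot move a share beyond genes at the threshold. Depth could not be set against any of these values.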

Other observations

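By chromosome, the summed FPKM followed the number of genes only in part. Chromosome 5, with the most kept genes at 827, held 5.98%, and chromosome 24, with the fewest at 412, held 2.12%. Others lay further from their share of genes. Chromosome 3 held 8.92% of the summed FPKM with 5.09% of the kept genes, and 7.87% without the total named pvalb5. Chromosome 19 held 6.69% with 4.11% of the genes, and 5.62% without eef1a1l1. Chromosome 17 held 3.93%, and 2.01% without actc1b. Chromosome 4 held 1.84% with 3.04% of the genes, and chromosome 13 held 2.65% with 3.89%. The range over the 3 libraries was 8.90% to 8.94% for chromosome 3 and 1.81% to 1.89% for chromosome 4.

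Totals with clone-style or small nucleolar RNA names were set aside here. Among the 25 highest other totals outside the lists were calmodulin, cold-shock and muscle genes. The calmodulin gene calm3a stood at 476, 478 and 481 FPKM, with a coefficient of variation of 0.505%. cirbpb, of the cold-inducible RNA-binding family, stood at 581, 563 and 548 FPKM, and its duplicate cirbpa at 402, 367 and 402 FPKM. bhmt, which makes methionine from betaine, stood at 623, 565 and 687 FPKM and was lowest in replicate 2, like most lipoprotein genes. mybphb, a myosin-binding protein gene, stood at 244, 290 and 384 FPKM and was highest in replicate 3.

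First exons were counted per gene as well. In 10062 kept genes, or 71.1%, a single first exon was listed in all 3 libraries, and in 2019, or 14.3%, at least 2 were listed in all 3. Of the 100 most abundant genes, 28 had at least 2. Loci with no gene ID numbered 1370, 1398 and 1324 and summed to 8833, 9334 and 9046 FPKM in replicates 1, 2 and 3, and these sums are outside the shares given above.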
